A study of Mus musculus with 6 samples.

Results

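The 37 genes described here carry out DNA replication or supply and safeguard its nucleotides: 14 act in origin licensing and helicase assembly, 13 encode polymerase subunits and other proteins of the replication fork, 6 act in nucleotide supply, and 4 copy chromatin and DNA methylation. They were taken by name from the deposited expression table, all 37 had at least 1 row with that single gene symbol, and all lay above the filter on low values, so they are 37 of the 15037 genes tested. The series measured Tregs, regulatory CD4+ lymphocytes that hold immune responses in check, on 6 single-colour Affymetrix arrays. Total peripheral T cells of wild-type mice had been transferred into CD3ε-/- recipients, which lack T cells of their own but keep B cells and myeloid cells. In the MHC II-competent group (3 arrays) the recipients expressed MHC class II, whose molecules are what the antigen receptor (TCR) of CD4+ cells binds. In the MHC II-deficient group (3 arrays) the recipients lacked CD3ε and MHC class II together, so that the transferred CD4+ cells went without TCR contact with class II. After 5 days CD4+ TCRβ+ CD25+ cells were enriched on magnetic beads and sorted. The strain is given as C57BL/6, the age as 6 to 8 weeks and the tissue as peripheral lymph nodes and spleen. The labels call the replicates biological but leave unsaid whether 1 mouse or several gave each preparation. P-values here therefore cover only the spread between these preparations. Arrays are numbered within each group, as competent 1 or deficient 3. CD25 is also carried by activated conventional T cells, and the values are those of the whole sort.

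Before a cell copies its genome, the origin recognition complex, Cdc6 and Cdt1 load the ring-shaped MCM helicase onto origins, and GINS and Mcm10 help turn it into an active helicase. Polymerase alpha with its primase lays down the primers, the RFC complex loads the PCNA clamp, polymerases delta and epsilon extend the new strands, and Fen1 and Lig1 process and join the lagging-strand fragments. Ribonucleotide reductase, thymidylate synthase and thymidine kinase make deoxynucleotides. Resting T cells express many of these genes at a low level and induce them when they enter the cell cycle, largely through E2F transcription factors, which the RB proteins hold in check.

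Most replication genes lay lower in Tregs from MHC II-deficient recipients, by small amounts. Differences are on the log2 scale and are those of the MHC II-deficient group minus the competent one. They were below 0 for 35 of the 37 genes, against 46.0% of all genes tested. Their median was -0.35, which is 1.27-fold lower, against a median of 0.02 over all genes tested. The test was limma's moderated test on 3 against 3 arrays, with Benjamini-Hochberg adjustment over all genes tested. Genes with an adjusted p under 0.05 are said to have fallen or risen. By that rule 5 of the 37 fell (Mcm3, Rfc4, Lig1, Pola1 and Prim2) and 0 rose, where 2.03% of all genes tested fell and 1.34% rose. At an unadjusted p under 0.05, 24 lay lower and 0 higher, where the background is 11.0% lower and 7.85% higher. All 3 deficient arrays lay under all 3 competent arrays for 23 of the 37 genes, against 12.9% of all genes tested, and in 0 genes did they lie above, against 11.4%. Of the 5 calls, 0 remained without competent 1, competent 2, deficient 1 or deficient 2, when 17, 19, 14 and 21 of the genes still lay lower at an unadjusted p under 0.05. Over all genes tested, 141, 83, 81 and 89 fell without those arrays in turn, against 306 with all arrays. Bulk values cannot tell fewer cycling cells in the sort from less RNA per cell.

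**Figure D1:**
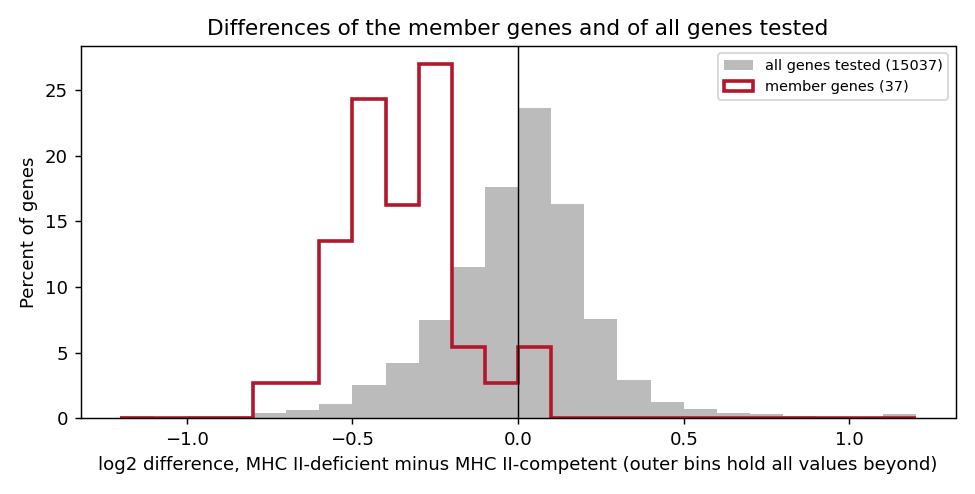
Histogram of the log2 difference, MHC II-deficient minus MHC II-competent, as the percent of genes per bin, for all 15037 genes tested (grey) and for the 37 replication and nucleotide genes (red outline). The red outline is shifted to the left, with a median of -0.35 against 0.02, and its 2 genes above 0 are Tk1 and Ung.

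**Figure D2:**
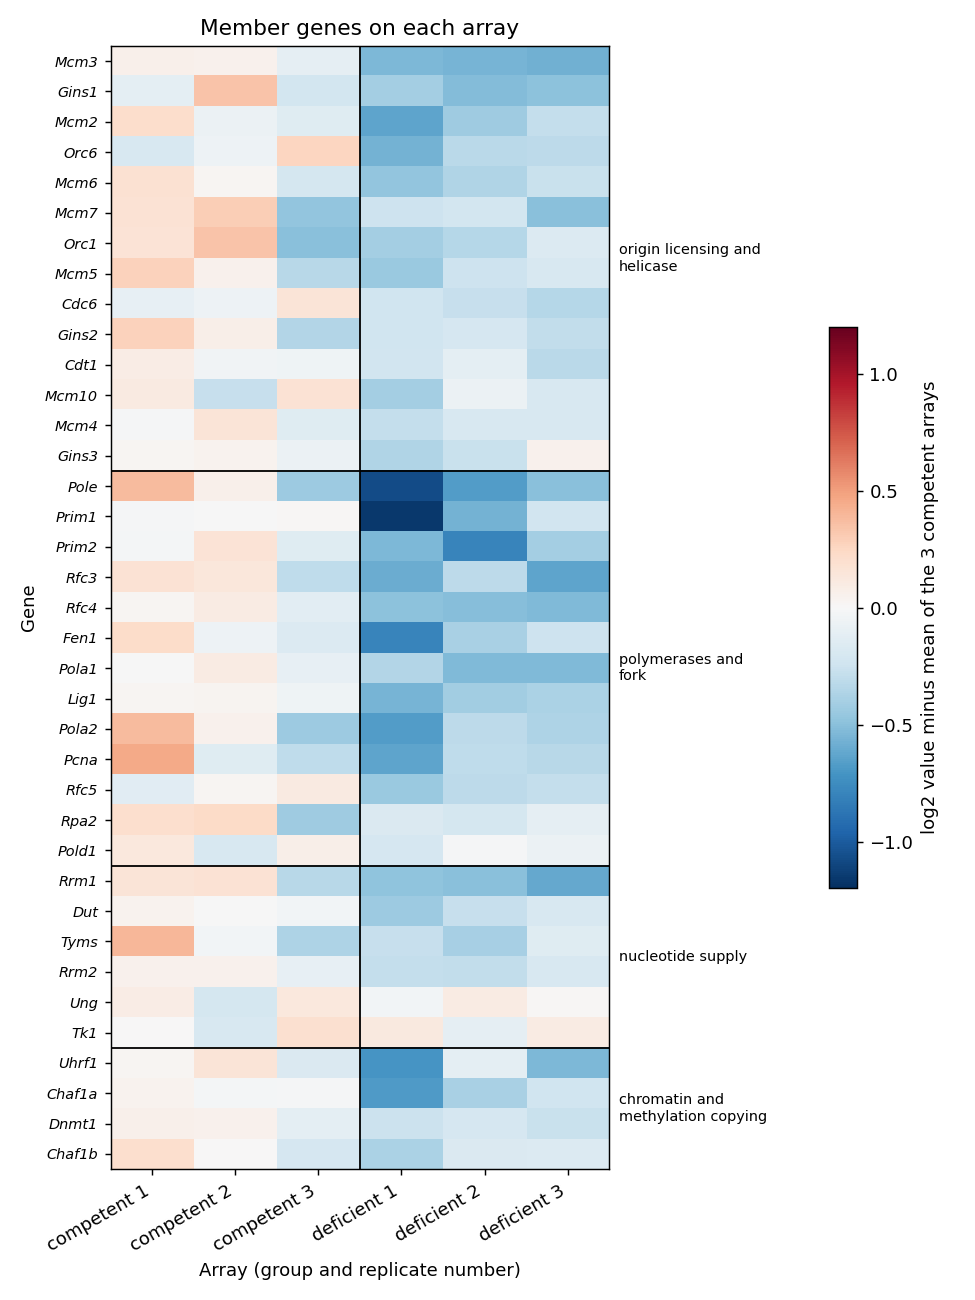
Each of the 37 genes (rows, by subset) on each array (columns), as the log2 value minus that gene's mean over the 3 competent arrays; blue is lower and red is higher. The deficient columns are blue for nearly all rows, deficient 1 most deeply, and competent 3 is often the bluest of the competent columns.

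Among the 14 genes of origin licensing and helicase assembly, all had a difference below 0 and the median was -0.30. Against 2.03% of all genes tested, 1 gene of the 14 fell. That gene was Mcm3 (row 10353420 of the table), a subunit of the helicase ring. Its log2 values were 9.28, 9.27 and 9.11 on the competent arrays and 8.68, 8.66 and 8.64 on the deficient arrays. The 3 deficient arrays were almost level, and a gap of 0.43 separated the groups, the widest of all 37 genes. Mcm3 fell by 0.56 on the log2 scale (SE 0.09, n = 3 per group, limma adjusted p = 0.016), a 1.47-fold difference, and its adjusted p lay between 0.051 and 0.069 when any array other than competent 3 was left out.

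The other subunits of the MCM2-7 ring lay lower as well but did not pass. Mcm2 stood at 9.45, 9.17 and 9.09 against 8.61, 8.82 and 8.96, with no overlap between the groups (difference -0.45, SE 0.13, limma adjusted p = 0.10). Mcm6 and Mcm4 also had groups that did not overlap, with differences of -0.36 and -0.22. For Mcm5, at 9.53, 9.31 and 8.93 against 8.81, 9.00 and 9.06, the groups overlapped because competent 3 lay among the deficient arrays (difference -0.30, SE 0.15, limma adjusted p = 0.34). Mcm7 showed the same arrangement, with competent 3 at 7.86 and the deficient arrays from 7.82 to 8.10 (difference -0.33). Over the ring's 6 genes the median difference was -0.35. The deficient arrays all lay lower for 4 of the 6, against 12.9% of all genes tested.

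Among the loading factors, Cdc6, the ATPase that brings the helicase to origins, stood at 7.83, 7.87 and 8.08 in the competent and 7.69, 7.65 and 7.58 in the deficient group. The groups did not overlap, and the difference of -0.29 (SE 0.10) did not pass (limma adjusted p = 0.17). Cdt1, its partner in loading, differed by -0.22 and also had separate groups. Orc6, a subunit of the origin recognition complex, differed by -0.40 with separate groups, while Orc1, the ATPase subunit of that complex, differed by -0.31. The Orc1 groups overlapped through competent 3 alone, at 6.23, and without it Orc1 passed (-0.56, limma adjusted p = 0.036). The GINS genes differed by -0.47 (Gins1), -0.25 (Gins2) and -0.19 (Gins3), and the groups were apart for Gins1 alone of these. Mcm10, which acts with GINS when the helicase is activated, differed by -0.22 with overlapping groups. The 4 other subunit genes of the origin recognition complex, Orc2 to Orc5, are not among the 37, and with them the complex had a median of -0.20 and 0 of 6 genes that fell, against 1 of 6 genes at an unadjusted p under 0.05. Of all genes tested, 2.03% fell and 11.0% lay lower at that unadjusted p.

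Many replication genes carry E2F sites near their start, so the promoters were searched for the 8-letter sites TTTCCCGC, TTTCGCGC, TTTGCCGC and TTTGGCGC and, on the other strand, GCGGGAAA, GCGCGAAA, GCGGCAAA and GCGCCAAA. RefSeq promoters (GRCm38.p6, from 250 bases before to 50 after a gene's start) were on hand for 32 of the 37 genes. At least 1 site was found for 14 of the 32 (43.8%), against 4.17% of the 11885 tested genes with a promoter in the same table. Counted by promoter, since some genes have several, it was 35.9% of 39, against 3.54% of the 14870 promoters of tested genes and 2.26% of all 32851 in the table. The stretches below are shown because they hold the sites of the genes that fell (Mcm3, Lig1 and Pola1) and of Mcm5 and Mcm6, which were added for their overlapping sites. Capitals mark the sites, and positions count from 1 at the start, with negative positions before it.
Mcm3, chr1:20820266-20820295, minus strand, positions 18 to 47: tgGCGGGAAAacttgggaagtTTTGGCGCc
Lig1, chr7:13278841-13278870, plus strand, positions 16 to 45: cgccaaagtgcGCGCGAAAtctgtgtggcg
Pola1, chrX:93632156-93632315, minus strand, positions -160 to -1: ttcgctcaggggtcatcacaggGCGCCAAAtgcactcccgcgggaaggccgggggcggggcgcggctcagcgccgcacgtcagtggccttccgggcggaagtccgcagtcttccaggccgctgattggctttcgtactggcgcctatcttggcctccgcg
Mcm5, chr8:75109349-75109508, plus strand, positions -160 to -1: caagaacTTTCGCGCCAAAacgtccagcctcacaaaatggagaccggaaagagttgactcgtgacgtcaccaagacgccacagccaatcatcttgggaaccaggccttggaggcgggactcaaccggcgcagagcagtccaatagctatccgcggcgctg
Mcm6, chr1:128359706-128359865, minus strand, positions -160 to -1: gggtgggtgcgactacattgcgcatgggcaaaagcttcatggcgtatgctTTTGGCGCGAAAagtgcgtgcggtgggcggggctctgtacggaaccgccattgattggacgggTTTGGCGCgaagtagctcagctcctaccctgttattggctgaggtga
In Mcm5 the capitals hold 2 overlapping sites, TTTCGCGC and GCGCCAAA, and in Mcm6 the first run holds TTTGGCGC and GCGCGAAA, again overlapping, with a further TTTGGCGC nearer the start. Mcm3 has both of its sites after the start, and the site of Lig1 lies in 1 of 3 alternative promoters. A match is a run of letters and was not tested as a binding site.

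The 14 genes with a site had a median difference of -0.32, ranging from -0.56 to -0.10, and 3 of them fell. The 18 genes without a site in these promoters had a median of -0.37, ranging from -0.65 to 0.03, and 1 of them, Rfc4, fell. Of all genes tested, 2.03% fell. All 3 deficient arrays lay under the competent ones for 8 of the 14 and 11 of the 18, against 12.9% of all genes tested. Whether genes with and without a site differ was not tested. The remaining 5 (Mcm4, Gins1, Gins2, Prim2 and Pole) were not searched. With the first T dropped from each site, 22 of the 32 genes (68.8%) had a match, against 17.3% of the tested genes. The CCAAT box, searched as CCAAT on both strands, was found for 59.4% of the 32 genes and 41.4% of the tested genes. The cell cycle element CHR, searched as TTTGAA and TTCGAA on both strands, was found for 18.8% and 16.7%.

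Of the 13 genes of polymerases and the fork, all had a difference below 0, and the median of -0.47 was the lowest of the subsets. Of these genes 4 fell, against 2.03% of all genes tested. Rfc4 (row 10438690), a subunit of the complex that loads the PCNA clamp, stood at 8.70, 8.78 and 8.56 on the competent and 8.18, 8.17 and 8.14 on the deficient arrays. As for Mcm3, the deficient arrays were nearly level and well below every competent array. Rfc4 fell by 0.51 (SE 0.10, n = 3 per group, limma adjusted p = 0.024), a 1.43-fold difference. Lig1 (row 10550102), the ligase that joins lagging-strand fragments, stood at 9.22, 9.24 and 9.15 against 8.64, 8.78 and 8.82. It fell by 0.45 (SE 0.09, n = 3 per group, limma adjusted p = 0.036), with the lowest value on deficient 1.

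Polymerase alpha-primase starts every new strand, and all 4 of its genes are among the 37. Pola1 (row 10605674), its catalytic subunit, stood at 8.96, 9.06 and 8.86 against 8.60, 8.43 and 8.43 and fell by 0.47 (SE 0.10, n = 3 per group, limma adjusted p = 0.040). Prim2 (row 10353733), the large primase subunit, stood at 7.42, 7.60 and 7.29 against 6.90, 6.65 and 7.04 and fell by 0.58 (SE 0.13, n = 3 per group, limma adjusted p = 0.044). Prim1, the catalytic primase subunit, had the most even competent values of the 37 genes and the widest deficient ones, 9.66, 9.68 and 9.69 against 8.52, 9.11 and 9.45. Its difference of -0.65 (SE 0.20) did not pass (limma adjusted p = 0.12), and deficient 1 lay far below the other two. Pola2, the regulatory subunit, differed by -0.45 with overlapping groups. The calls of Rfc4, Lig1 and Pola1 ended when any array other than competent 3 was left out (highest adjusted p 0.095, 0.15 and 0.15), and that of Prim2 when any other than competent 3 or deficient 3 was (0.15). Quantile normalization also ended the calls of Lig1 and Pola1 (limma adjusted p = 0.052 and 0.059), and centring each array on its median ended that of Prim2 (limma adjusted p = 0.060).

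Pole, the catalytic subunit of the leading-strand polymerase epsilon, had the largest difference of all 37 genes. It stood at 8.28, 7.97 and 7.46 on the competent and 6.83, 7.23 and 7.41 on the deficient arrays, so the groups were apart by a gap of 0.06 and both were spread widely. The difference of -0.75 (SE 0.21) did not pass with all arrays (limma adjusted p = 0.094) and passed without competent 3 (-0.97, limma adjusted p = 0.023). By contrast Pold1, the catalytic subunit of polymerase delta, stood at 7.61, 7.29 and 7.56 against 7.28, 7.47 and 7.41. Its groups overlapped, and its difference of -0.10 had a 95% interval from -0.35 to 0.16; whether Pole and Pold1 differ from each other was not tested. With the subunit genes outside the 37, the 4 genes of polymerase epsilon had a median of -0.46 with 1 that fell (Pole2), and the 4 of polymerase delta had a median of -0.19 with 0 that fell and 0 at an unadjusted p under 0.05. Of all genes tested, 2.03% fell and 11.0% lay lower at that unadjusted p. Whether the polymerases differ from each other was not tested.

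The clamp and its loader lay lower throughout. Pcna has 2 rows on the array, annotated with the same accessions, and the one with the higher mean stood at 12.72, 12.12 and 11.97 against 11.64, 11.96 and 11.94. Competent 1 was the outlying value, and the groups were apart by 0.0058 (difference -0.42, SE 0.19, limma adjusted p = 0.26). The second row stood at 11.94, 11.90 and 11.87 against 11.74, 11.70 and 11.74, a smaller difference of -0.18 with tighter groups that were also apart. Mouse Pcna has pseudogene copies, Pcna-ps1 and Pcna-ps2 in RefSeq, so which copy each row binds is uncertain. The loader genes Rfc3 (-0.52, limma adjusted p = 0.10) and Rfc5 (-0.35, limma adjusted p = 0.11) had separate groups, as did Rfc1 and Rfc2 outside the 37, which differed by -0.15 and -0.18. Fen1, the flap endonuclease of the lagging strand, differed by -0.47 with separate groups and its lowest value on deficient 1. Rpa2, a subunit of the single-strand binding complex, differed by -0.17 (95% interval -0.54 to 0.21) with overlapping groups.

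**Figure D3:**
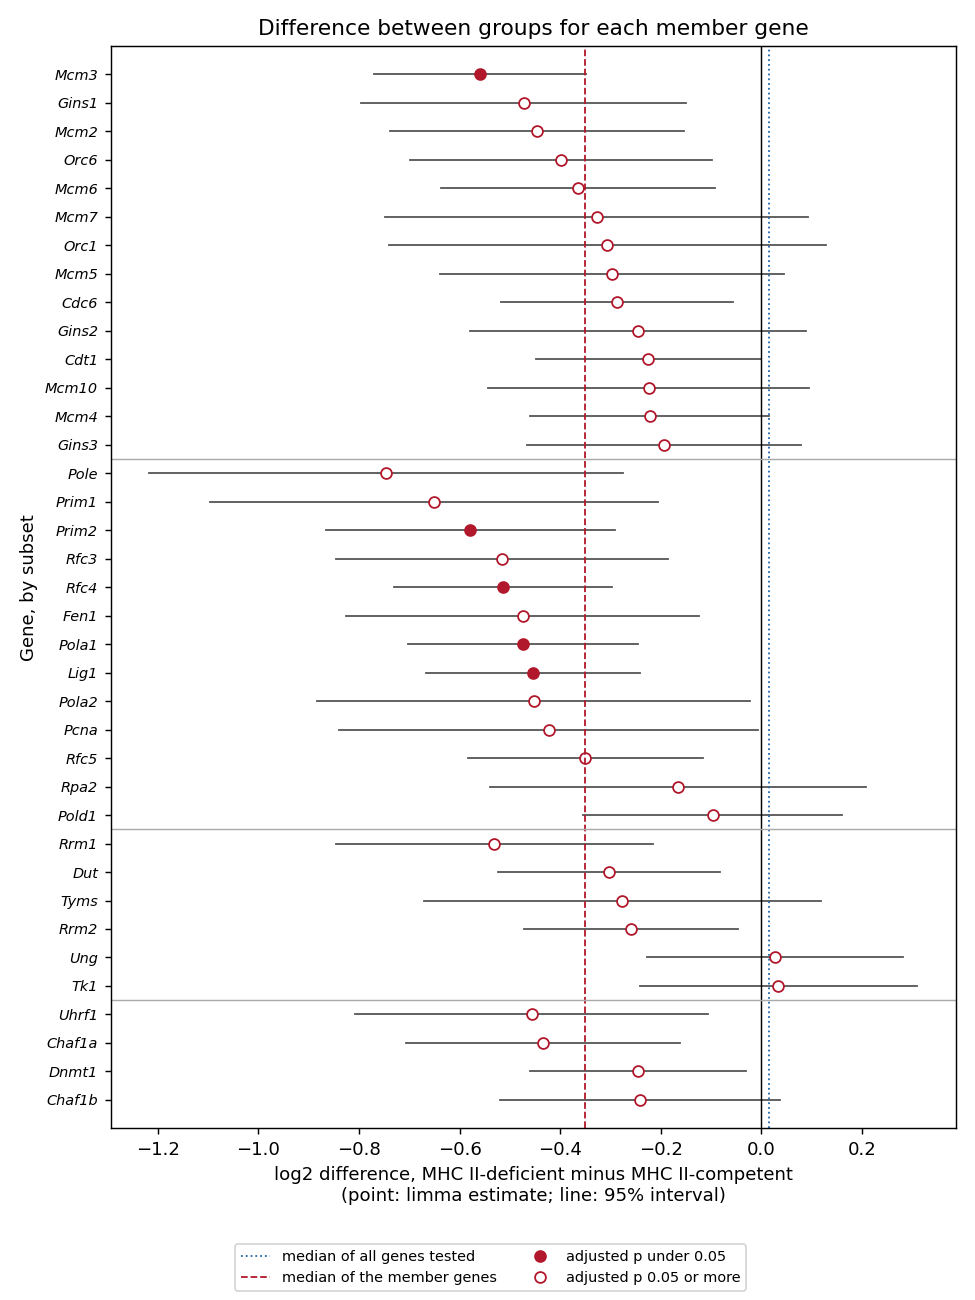
Limma estimate (point) and 95% interval (line) of the log2 difference, MHC II-deficient minus MHC II-competent, for each of the 37 genes by subset; filled points have an adjusted p under 0.05. Filled points are Mcm3, Prim2, Rfc4, Pola1 and Lig1, the dashed line is the median of the 37 genes at -0.35 and the dotted line that of all genes tested at 0.02.

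Of the 6 genes of nucleotide supply, 4 had a difference below 0, the median was -0.27, and 0 fell by limma (3 lay lower at an unadjusted p under 0.05, and with array weights in the fit 1 fell). At that unadjusted p, 11.0% of all genes tested lay lower. The largest difference of the 6 was that of Rrm1, the large subunit of ribonucleotide reductase, which makes deoxynucleotides from ribonucleotides. Rrm1 stood at 10.12, 10.14 and 9.64 against 9.49, 9.47 and 9.36, with no overlap (difference -0.53, SE 0.14, limma adjusted p = 0.078), and it passed without competent 3 (limma adjusted p = 0.010). Rrm2, the small subunit that is made in S phase, stood at 10.21, 10.21 and 10.06 against 9.87, 9.86 and 9.97. Its groups were apart, and its difference was -0.26 (SE 0.10, limma adjusted p = 0.18). Dut, the dUTPase that keeps uracil out of DNA, differed by -0.30, also with separate groups. Tyms, thymidylate synthase, stood at 9.27, 8.83 and 8.50 against 8.59, 8.46 and 8.72, so that competent 3 lay among the deficient arrays (difference -0.28, SE 0.18, limma adjusted p = 0.44).

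On the rows used, Tk1 and Ung were the 2 genes of the 37 with differences above 0, and both values were close to 0. Tk1, the thymidine kinase of S phase, stood at 8.88, 8.68 and 9.07 against 9.00, 8.77 and 8.97. Its difference was 0.03 with a 95% interval from -0.24 to 0.31 (limma adjusted p = 0.91). Tk1 also has a second row, with a difference of -0.11, and the mean of both rows gave -0.036, so its sign depends on the row used. Both rows are annotated with the same accessions, and which of them measures the gene rather than a copy is uncertain. It also turned with each array centred on its median (-0.020) and without competent 2 (-0.064) or deficient 1 (-0.0077). Ung, the glycosylase that removes uracil from DNA, differed by 0.03 with an interval from -0.23 to 0.28, and its sign turned under quantile normalization (-0.020), with each array centred on its median (-0.026) and without competent 2 (-0.078) or deficient 2 (-0.0074). Whether Tk1 and Ung differ from the other genes was not tested.

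The 4 genes that copy chromatin and DNA methylation behind the fork had a median of -0.34, all below 0, and 0 fell by limma (3 lay lower at an unadjusted p under 0.05). At that unadjusted p, 11.0% of all genes tested lay lower. Chaf1a, the large subunit of the histone chaperone CAF-1, stood at 8.79, 8.73 and 8.73 against 8.07, 8.36 and 8.51. The competent arrays were level and the deficient arrays were all lower (difference -0.43, SE 0.12, limma adjusted p = 0.093). Uhrf1, which recruits the maintenance methyltransferase to newly copied DNA, stood at 9.17, 9.31 and 8.98 against 8.44, 9.03 and 8.62, and deficient 2 overlapped competent 3 (difference -0.46, SE 0.16, limma adjusted p = 0.16). Dnmt1, that methyltransferase, stood at 10.50, 10.49 and 10.31 against 10.18, 10.23 and 10.16 with no overlap (difference -0.24, SE 0.10, limma adjusted p = 0.21). Chaf1b, the middle subunit of CAF-1, differed by -0.24 with overlapping groups.

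The arrays of a group did not behave alike. Relative to the competent mean of each gene, the median over the 37 genes was 0.09, 0.04 and -0.14 on competent 1, 2 and 3, and -0.43, -0.32 and -0.28 on deficient 1, 2 and 3. Competent 3 was the lowest competent array for 28 of the 37 genes and deficient 1 the lowest deficient array for 21. Of the 14 genes with overlapping groups, 9 overlapped through competent 3 alone. Without competent 3, 12 of the 37 genes fell: the 5 named above with Mcm6, Mcm7, Orc1, Pola2, Pole, Rfc3 and Rrm1. Without deficient 3, 2 fell (Prim2 and Prim1), and without any other array 0 fell. Over all genes tested, 486 fell without competent 3 and 181 without deficient 3, against 306 with all arrays. The median difference stayed below 0 with each array left out, between -0.46 (without competent 3) and -0.27 (without competent 1).

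**Figure D4:**
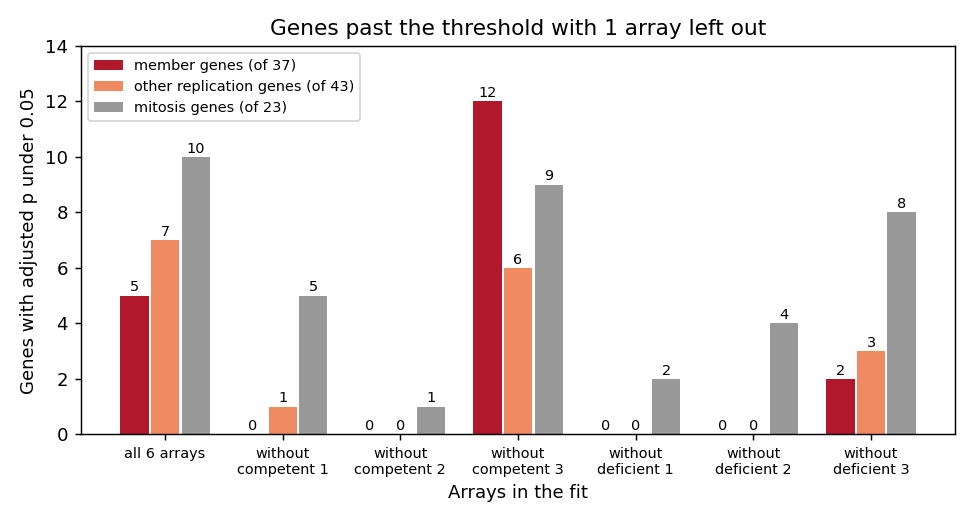
Number of genes with an adjusted p under 0.05 in limma's test with all 6 arrays and with each array left out, for the 37 replication and nucleotide genes, 43 other replication genes and 23 mitosis genes; in these lists, each of these calls is lower in the MHC II-deficient group. Red bars are at 5 with all arrays, 12 without competent 3, 2 without deficient 3 and 0 without each of the other arrays. Over all genes tested (not drawn), 306 fell with all arrays, 486 without competent 3 and 181 without deficient 3. Without competent 1, competent 2, deficient 1 and deficient 2 in turn, 141, 83, 81 and 89 fell.

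Other genes of the pathway were read from lists of textbook members, chosen with earlier results of these data known. Of 43 other replication genes tested, 7 fell and 0 rose, with a median of -0.23 and 39 below 0, and 18 lay lower and 0 higher at an unadjusted p under 0.05. Gmnn, which encodes geminin, the inhibitor of Cdt1, fell by 0.64 (SE 0.11, limma adjusted p = 0.016), and its values were 8.52, 8.67 and 8.57 against 7.87, 7.85 and 8.13. Dscc1, part of an alternative clamp loader, fell by 0.66 (limma adjusted p = 0.016), and Ticrr, which helps activate the helicase, by 0.72 (limma adjusted p = 0.039). Tipin and Clspn, which steady the fork, fell by 0.55 and 0.46, Pole2, a subunit of polymerase epsilon, by 0.60, and Hells, a chromatin remodeller, by 0.44 (limma adjusted p = 0.026, 0.044, 0.030 and 0.048). All 3 deficient arrays lay under the competent ones in 20 of the 43, against 12.9% of all genes tested. Of all genes tested, 2.03% fell and 11.0% lay lower at an unadjusted p under 0.05. The count of the 43 that fell was 1 without competent 1, 0 without competent 2, deficient 1 or deficient 2 (13, 12 and 14 lay lower at an unadjusted p under 0.05), 6 without competent 3 and 3 without deficient 3.

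Of 33 other genes of nucleotide synthesis tested, 1 fell and 0 rose, with a median of -0.22, 27 below 0 and 6 above. Of all genes tested, 2.03% fell and 1.34% rose. At an unadjusted p under 0.05, 13 of the 33 lay lower and 2 higher, against 11.0% and 7.85% of all genes tested. The 2 higher genes, named after their values were seen, were Tk2, the mitochondrial thymidine kinase (difference 0.53, SE 0.14, limma adjusted p = 0.085), and Dguok, the mitochondrial deoxyguanosine kinase (difference 0.31, SE 0.11, limma adjusted p = 0.16). Dctd, the deaminase that turns dCMP into dUMP, stood at 7.63, 7.71 and 8.15 against 6.83, 6.82 and 6.99 and fell by 0.95 (SE 0.14, n = 3 per group, limma adjusted p = 0.0087), a 1.93-fold difference. Its call held with each array left out, and without competent 3 there were 5 calls, all lower. Samhd1, which breaks deoxynucleotides down, stood at 11.71, 11.81 and 11.89 against 12.02, 11.93 and 12.03, higher on every deficient array, and did not pass (difference 0.19, SE 0.09, limma adjusted p = 0.32).

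None of the 18 genes of the E2F and RB family passed in limma's test, although 8 lay lower and 1 higher at an unadjusted p under 0.05 and array weights gave 2 that fell. Of all genes tested, 11.0% lay lower and 7.85% higher at that unadjusted p. E2f1, an activating E2F, stood at 6.78, 6.57 and 6.56 against 6.19, 6.47 and 6.36 (difference -0.30, SE 0.11, limma adjusted p = 0.19). E2f2 overlapped between groups (difference -0.16, limma adjusted p = 0.45). Rb1, the gene of the retinoblastoma protein that restrains E2F, stood at 9.41, 9.73 and 9.35 against 9.07, 9.04 and 9.13, with no overlap (difference -0.42, SE 0.12, limma adjusted p = 0.093). The list's median was -0.20. Of the 23 mitosis genes tested, 10 fell and 0 rose, with a median of -0.50, where 2.03% of all genes tested fell. Cenpf, a kinetochore gene, fell by 0.80 (SE 0.11, limma adjusted p = 0.0056), Prc1 and Kif11, which organise the spindle, by 0.88 and 0.73, Cenpe by 0.65, Nusap1 by 0.95 and the proliferation marker Mki67 by 0.58 (limma adjusted p = 0.0088, 0.012, 0.022, 0.023 and 0.031). The count of mitosis genes that fell was 5 without competent 1, 1 without competent 2, 2 without deficient 1, 4 without deficient 2 and 6 under quantile normalization. Over all genes tested, the count that fell went from 306 to 141, 83, 81, 89 and 230 in these settings. Whether the mitosis and the replication genes differ from each other in size was not tested.

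**Figure D5:**
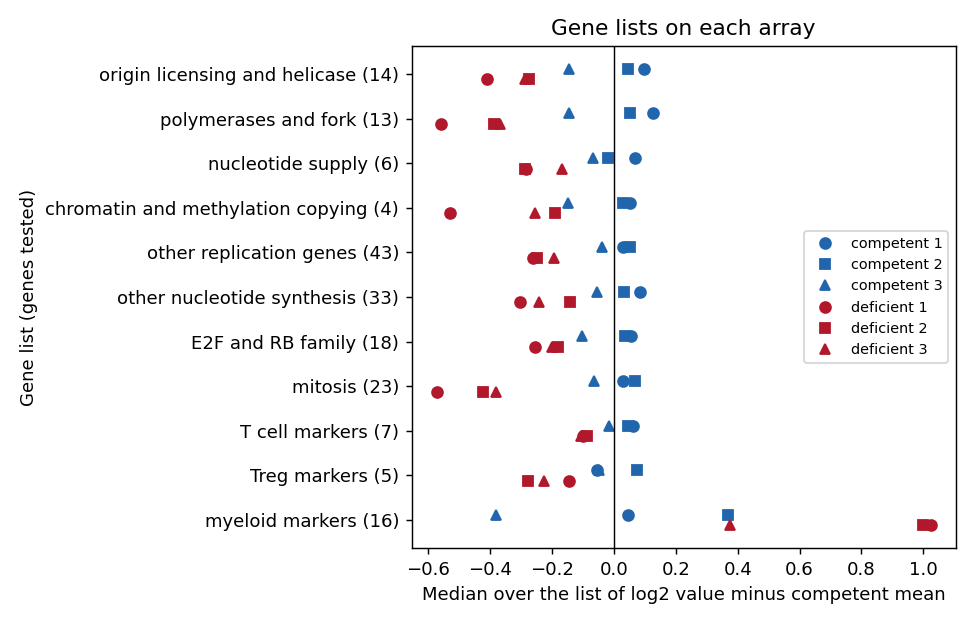
Median over each gene list (number of genes in brackets) of the log2 value minus the gene's competent mean, for the 3 competent arrays (blue) and the 3 deficient arrays (red), one symbol per replicate number. In every list shown except the myeloid markers, the red symbols lie to the left of the blue ones, the Treg and T cell markers included. The T cell markers span a narrow range, and the myeloid markers lie to the right on deficient 1 and 2.

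Over the whole table, 507 of 15037 genes (3.37%) passed, 201 higher and 306 lower, and quantile normalization gave 230 of each. Array medians lay between 6.11 and 6.25. Foxp3, the transcription factor that defines Tregs, stood from 9.77 to 9.88 on the competent and from 9.68 to 9.86 on the deficient arrays (difference -0.06, limma adjusted p = 0.80), and its sign turned under quantile normalization (0.017). For the marker lists that follow, the background over all genes tested was 2.03% that fell and 1.34% that rose. At an unadjusted p under 0.05 it was 11.0% lower and 7.85% higher. Of the 5 Treg markers tested, 0 passed (3 lay lower at an unadjusted p under 0.05), with a median of -0.27. Of the 7 T cell markers tested, 0 passed (0 also at an unadjusted p under 0.05) and the median difference was -0.08. The median of the 37 genes was -0.35, and that of their nucleotide supply subset was -0.27, as for the Treg markers. Of the 16 myeloid markers tested, 14 had a difference above 0, 13 lay higher and 2 lower at an unadjusted p under 0.05, and 1 rose (Adgre1, a macrophage surface receptor), with a median of 0.81 and mean levels from 6.13 to 6.93 on the competent and 6.89 to 7.58 on the deficient arrays. Deficient 1, the lowest array for 19 of the 37 genes, had the highest myeloid level, while competent 3, the lowest competent array, had the lowest. Of the 4 B cell markers tested 1 rose (Cd22), and of the 4 erythroid markers 1 rose (Gata1). In each of these lists 2 lay higher and 1 lower at an unadjusted p under 0.05. Of the 6 CD8 T and NK cell markers 0 passed (3 lay higher at an unadjusted p under 0.05). The markers Clec4a2 of myeloid cells, Ms4a1, Ebf1 and Blnk of B cells, Ncr1 and Klrb1c of NK cells and Klf1, Car1 and Rhag of erythroid cells lay below the filter on low values. The part of these other cells in the differences of the replication genes was not tested.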

How the data were processed

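Gene expression was measured on 6 Affymetrix arrays, each from 100 ng of total RNA per the labels' protocols. The deposited table holds 1 log2 value for each of 28101 rows and array. The authors made them with affy and RMA (robust multi-array averaging), per the submitters' processing notes; versions and genome build are not given in the sources used here, and the log base, not stated, was taken as 2 from the range of 2.40 to 13.3. No read depth exists for arrays, and their number limits the precision. Rows were named through the platform annotation (21640 with 1 symbol, 1321 with several, 5140 with none), with symbols updated by Entrez identifier from RefSeq (GRCm38.p6, names only; 21553 matched). A gene took its row with the highest mean, and a filter on low values (mean at least 5.21, percentile 25 of the named rows) left some genes out (4900 of 19937). The contrast was fitted with limma 3.58.1 in R 4.3.3 (lmFit, eBayes, two-sided, no covariate; 4 residual degrees of freedom, 9.40 with the prior), after a test on simulated data. The 37 genes and the lists were chosen with earlier results of these data known. Named genes were those that passed, a fixed set per list, the 6 other members with the smallest p and up to 6 called genes of each further list; others were named after their values were seen. No group compared here has more than 3 arrays, so no single array was tested as an outlier.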

Additional observations from a re-analysis of the deposited data

How the results depend on the processing

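Each value was recomputed without the filter on low values, with a filter at the median, with quantile normalization, median centring, a trended robust prior, array weights, the mean of a gene's rows, the replicate number as a block, and with each array left out. Over the 37 genes and 14 alternatives (518 values), 468 kept their direction and their side of the threshold, 30 lost a call, 12 gained 1 and 8 turned sign. The 8 were those of Tk1 (-0.020 with centring, -0.036 with the mean of rows, -0.064 without competent 2 and -0.0077 without deficient 1) and Ung (-0.020 with quantile normalization, -0.026 with centring, -0.078 without competent 2 and -0.0074 without deficient 2). With 1 array left out, Tk1 ran from -0.064 to 0.13 and Ung from -0.078 to 0.090. Foxp3 turned to 0.017 with quantile normalization. The count of the 37 genes that fell, 5 in the report, was 3 with quantile normalization, 8 with array weights and 0 to 12 with 1 array left out. Over all genes tested, 306 fell in the report, 230 with quantile normalization and 447 with array weights. The median of the 37 genes ran from -0.46 to -0.27 with 1 array left out. That of polymerases and fork was -0.56 with array weights and ran from -0.57 to -0.39 with 1 array left out. With 1 array left out the counts ran from 153 to 709 for all genes, 0 to 6 for other replication genes, 1 to 5 for other nucleotide genes, 0 to 1 for the E2F and RB family and 1 to 9 for mitosis genes. The mitosis count was 6 with quantile normalization, the nucleotide count 3 with the trended prior and 3 with array weights, and the E2F and RB count 1 with centring and 2 with array weights. With 7-letter sites 22 of the 32 genes searched had a match in place of 14. The cause was not tested.

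With the replicate block, 3 of the 37 genes passed, all lower (Mcm3, Rfc4 and Rrm1), and the calls of Lig1, Pola1 and Prim2 ended (limma adjusted p = 0.062, 0.057 and 0.056). Over all genes tested, 318 passed lower and 246 higher with the block, against 306 and 201 without it. Of the other nucleotide genes 3 passed, Dctd and Dck lower and Tk2 higher. The numbers are not said to pair the arrays. Deviations of same-numbered arrays correlated at -0.02, -0.14 and 0.07, and 2 of the 6 arrays correlated best with their own number.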
